A study of Rattus norvegicus with 2 samples.

Results

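The 8 genes described here, S100b, Sox10, Pmp22, Gfap, Mbp, Ngfr, Erbb3 and Fabp7, are markers of the glia of the rat adrenal medulla, that is, of sustentacular cells and of the Schwann cells that accompany the splanchnic nerve fibers. They were listed as known marker genes, with earlier results of these data known. All probe sets named for exactly 1 of these genes were taken, which gave 11 of the 31042 probe sets and 8 of the 14217 genes on the array. A probe set is a group of short oligonucleotides that reads 1 transcript or a few. The 2RH30 pool came from adult male Sprague-Dawley rats given human insulin at 2 IU/kg intraperitoneally 2 times per day over 3 days, with 1 injection on day 3. The 2RS30 pool came from rats of the same kind given saline on the same schedule. On day 4 both groups underwent a hyperinsulinemic-hypoglycemic clamp with glucose held at 40 to 50 mg/dL, and the left adrenal medulla was taken 30 min after the target was reached. Both groups were therefore hypoglycemic when sampled and differed in their antecedent history. RNA of 6 rats per group was pooled on 1 Affymetrix rat genome array per group, so that no difference here has a replicate check, the spread between rats is not known and no p-value is given.

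Sustentacular cells are glia-like cells that wrap clusters of chromaffin cells, and Schwann cells ensheath the preganglionic axons that reach those clusters. Both descend from the neural crest and share the transcription factor Sox10 and the calcium-binding protein S100b. Peripheral glia depend on neuregulins, which signal through ErbB3 paired with ErbB2, and Schwann cells that myelinate an axon build their sheath from proteins such as Mbp and Pmp22. Glial precursors that travel with the nerve give rise to many chromaffin cells in the mouse embryo.

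None of the 11 probe sets differed by 2-fold or more between 2RH30 and 2RS30. Of all probe sets on the array, 10.4% lay at least 2-fold higher in 2RH30 and 12.1% at least 2-fold lower. At 1.5-fold, 1 probe set of Mbp was higher and the probe set of Fabp7 was lower, against 22.8% and 23.1% of all probe sets. By direction alone, 8 of the 11 probe sets had a higher value in 2RH30 and 3 had a lower one, whereas 51.0% of all probe sets were higher. Every difference given here is the log2 value of 2RH30 less that of 2RS30. Its median over the 11 was 0.35, and over all probe sets 0.02. With each gene read from its brightest probe set, 6 of 8 genes were higher and 2 lower, with a median of 0.26, against 56.1% higher and a median of 0.11 over all genes. In RNA of a whole tissue, fewer cells of a type and less RNA per cell cannot be told apart.

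**Figure D1:**
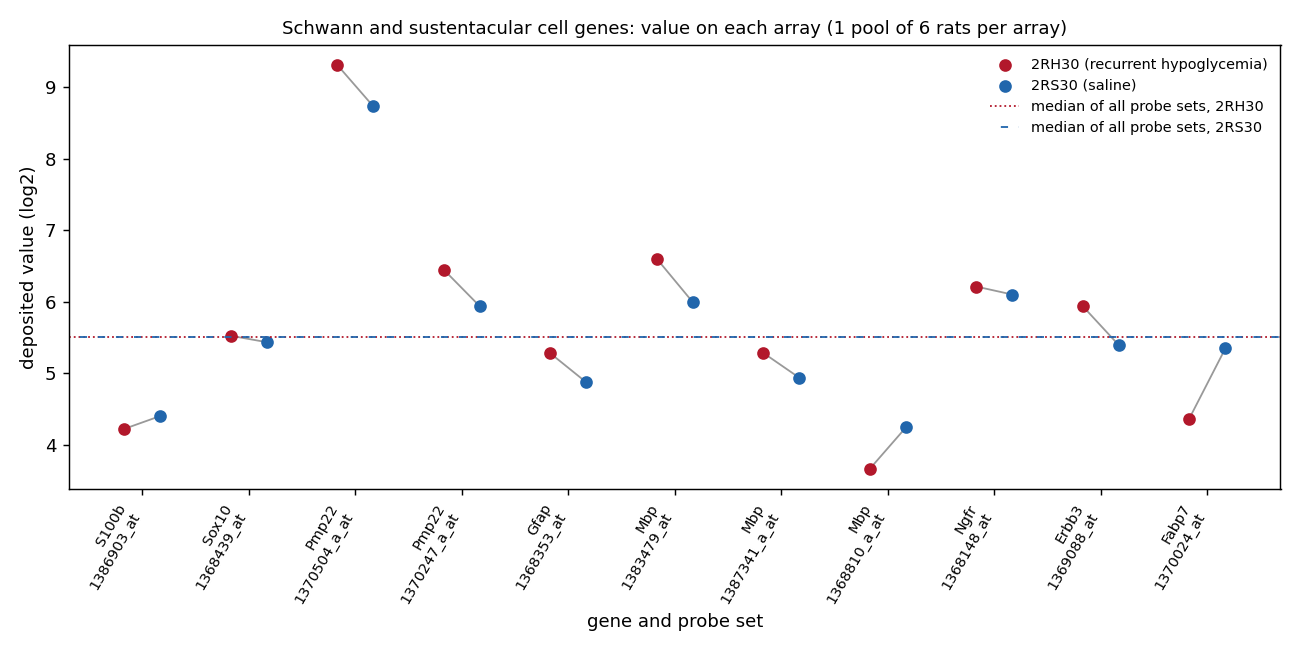
Deposited value (log2, vertical axis) of each probe set of the 8 glial genes (horizontal axis) in 2RH30 (red, left) and 2RS30 (blue, right), 1 pool of 6 rats each, with the median of all probe sets on each array (lines, almost at the same height). The red point lies above the blue one for 8 of 11 probe sets, and the widest gap is that of Fabp7.

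The arrays themselves differed, and these differences bear on such small values. The bioB control, a bacterial RNA added to the hybridization, differed by -3.51 to -3.03 over its 6 probe sets and was thus lower on the 2RH30 array. It differed the most, as the mean difference was -2.63 for the control bioC, -1.49 for bioD and -0.41 for cre. The beta-actin and GAPDH controls went the other way, with mean differences of 0.30 and 0.61. Values were spread more widely in 2RH30, with an SD of 1.57 over probe sets, than in 2RS30, with an SD of 1.28. The median difference was -0.38 in the dimmest of 20 bins of mean level and 0.49 in the brightest. A level-adjusted difference, in which this trend is removed by a lowess curve, is given below for each of the 8 glial genes and elsewhere where stated. Differences without that word are as deposited and still hold the trend. Of the 13 measured chromaffin cell markers, each read from its brightest probe set, 12 were higher in 2RH30, against 56.1% of all genes (median difference 0.44, level-adjusted 0.09). That count still holds the trend, as level-adjusted the markers lay on both sides of 0, from -2.30 to 0.45. The 8 measured markers of steroidogenic cortical cells had values of 9.06 to 13.64 in 2RH30 and of 8.73 to 12.92 in 2RS30, bright values in both pools of what was labelled medulla (median difference 0.61, level-adjusted 0.04). For the 9 endothelial markers the median difference was 0.20 (level-adjusted 0.10), and for the 10 fibroblast and mural markers it was 0.27 (level-adjusted 0.21). The 10 macrophage markers had a median difference of 0.95 (level-adjusted 0.97). At least 2-fold higher were 5 of them and 0 were as much lower, against 11.5% and 9.62% of all genes. At any size, 8 of the 10 were higher and 2 lower, against 56.1% of all genes higher. The part of any of these in the values of the glial genes was not tested.

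**Figure D2:**
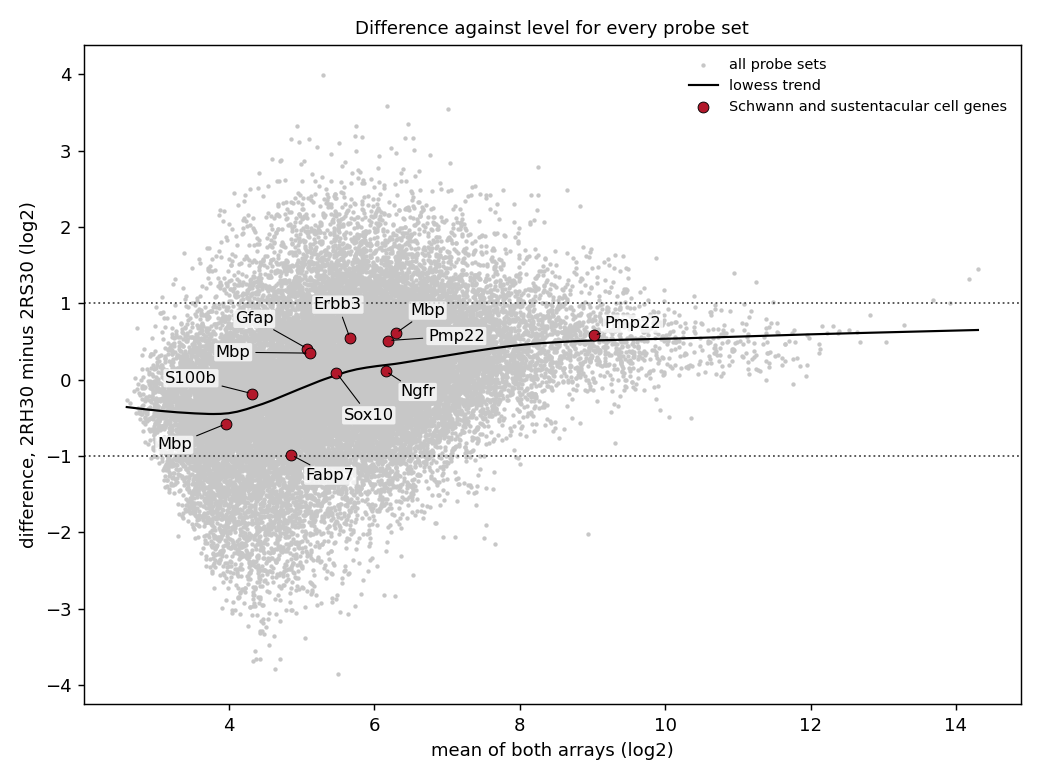
Every probe set (grey) by its mean over both arrays (horizontal axis, log2) and its difference, 2RH30 less 2RS30 (vertical axis, log2), with the lowess trend (black line), the glial genes (red) and a 2-fold difference (dotted). All 11 red points lie between -0.98 and 0.61, within the grey cloud at their level.

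A yardstick for a single probe set is the spread between probe sets of the same gene, which had an SD of 0.82 over 2539 genes with 2 or more probe sets that were not dim. A probe set is called dim where its value lies under the median of its array in both pools, which is not a detection limit. That SD holds no spread between rats. Of the 11 probe sets, 1 differed by more than it, that of Fabp7. A second description sets each probe set against the 1000 probe sets nearest to it in mean level. Depending on the level, 11.6% to 33.1% of those neighbours differed by 2-fold or more in either direction.

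Sox10, the transcription factor that specifies and maintains peripheral glia, had a value of 5.53 in 2RH30 and of 5.44 in 2RS30. Its difference of 0.09 (level-adjusted 0.03) was the smallest of the 11 as deposited, and 87.1% of its neighbours in level differed by more. The values lie at the middle of each array, at percentiles 50.3 of 2RH30 and 48.1 of 2RS30.

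S100b, the calcium-binding protein most used to stain sustentacular cells, read 4.23 in 2RH30 and 4.41 in 2RS30. It was dim, and 81.2% of its neighbours differed by more than its -0.18. Level-adjusted the difference was 0.18, with the sign turned, as its neighbours had a median difference of -0.37. Gfap, an intermediate filament protein of astrocytes that unmyelinated Schwann cells and some sustentacular cells also make, was dim too, with 5.28 in 2RH30 and 4.87 in 2RS30. Its difference was 0.41 (level-adjusted 0.49), and 59.8% of its neighbours differed by more.

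Fabp7, a fatty acid-binding protein of immature glia and of satellite glia, showed the widest difference of the 8 genes. Its value was 4.37 in 2RH30 and 5.35 in 2RS30, a difference of -0.98 (level-adjusted -0.82), or 1.98-fold lower in 2RH30. It was dim, at percentile 25.6 of 2RH30 and 45.5 of 2RS30. Among its 1000 neighbours 31.5% had a larger difference in either direction and 30.6% were past 2-fold, so a gap of this size was common at its level. Only 1 probe set reads Fabp7, and no other value was at hand to check it.

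RefSeq promoter windows, which run from 250 bases before to 50 bases after a transcription start, were found for 5 of the 8 genes in the GRCr8 assembly, namely Pmp22, Gfap, Mbp, S100b and Fabp7. The 60 bases before the start are shown for Fabp7, the gene with the lowest difference, and for Gfap and Pmp22, which had higher values in 2RH30, because these 3 share the letters AATAAA, given in capitals. S100b is shown as a member without them. The stretches lie at chr20:37669546-37669605 (plus strand) for Fabp7, chr10:88361662-88361721 (minus strand) for Gfap, chr10:48294872-48294931 (plus strand) for Pmp22 and chr20:12381082-12381141 (minus strand) for S100b.
Fabp7: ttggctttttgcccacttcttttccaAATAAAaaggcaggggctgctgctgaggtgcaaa
Gfap: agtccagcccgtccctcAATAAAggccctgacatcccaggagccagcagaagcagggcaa
Pmp22: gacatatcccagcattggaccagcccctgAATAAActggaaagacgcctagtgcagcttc
S100b: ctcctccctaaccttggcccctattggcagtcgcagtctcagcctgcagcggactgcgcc

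The first base of AATAAA stands 34 bases before the start in Fabp7, 43 in Gfap and 31 in Pmp22. Of all 33469 promoter windows, 2.27% hold it on the same strand within those 60 bases, and 21.6% hold it on either strand somewhere in the window. These letters were chosen after the sequences had been seen. A search of both strands of each window for letters that Sox proteins bind found ACAAAG in 1 of the 5 genes, Mbp, and ACAAT in 3, Fabp7, Mbp and S100b. These motifs share their first 4 letters but cannot overlap on the same strand at the same start, and 18.8% and 33.7% of all windows hold them. The genes that hold a motif include genes with higher and with lower values in 2RH30, and a match is a run of letters and not a shown site.

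Erbb3, the neuregulin receptor of Schwann cells and their precursors, had a value of 5.94 in 2RH30 and of 5.39 in 2RS30. The difference was 0.55 (level-adjusted 0.43), and 45.8% of its neighbours differed by more. Erbb2, the kinase with which it pairs, was dim at 4.65 in 2RH30 and 5.06 in 2RS30, a difference of -0.42 (level-adjusted -0.25). The receptor and its partner thus lay on opposite sides of 0, each by less than the spread between probe sets.

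The other genes of this pathway were read from a list of 18, of which 17 were measured. In 2RH30, 5 of the 17 lay at least 2-fold higher and 1 lay at least 2-fold lower, against 11.5% and 9.62% of all genes. Level adjustment left 4 genes on the higher side and 1 on the lower. The median difference of the 17 was 0.63 (level-adjusted 0.34). Adam10, a protease that sheds ErbB ligands and receptors, had 6.48 in 2RH30 and 4.55 in 2RS30 (difference 1.93), and its other probe set differed by 0.94. Adgrg6, an adhesion receptor that Schwann cells need to myelinate, had 3.84 in 2RH30 and 5.56 in 2RS30 (difference -1.71), and by its other, dim probe set -0.28. The Nrg1 gene, which encodes the ligand neuregulin 1, is read by 8 probe sets whose differences ran from -2.55 to 1.46. Of these, 5 were higher and 3 lower, and the brightest had 8.14 in 2RH30 and 6.74 in 2RS30. The values for Nrg1 therefore have no common direction. The 3 probe sets of the related ligand Nrg2 differed by 0.11, 0.52 and 0.67, and the 3 of the receptor Egfr by -0.72 to -0.55.

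Ngfr, the low-affinity neurotrophin receptor p75 of immature and unmyelinated Schwann cells, had a value of 6.21 in 2RH30 and of 6.10 in 2RS30. Its difference of 0.11 became -0.08 after level adjustment, and 85.3% of its neighbours differed by more. Of 16 measured genes of neurotrophin signaling, 3 lay at least 2-fold higher and 1 lower, against 11.5% and 9.62% of all genes, with a median of 0.24 (level-adjusted 0.03). After level adjustment 2 genes passed that fold on either side. The brightest probe set of Bdnf, a neurotrophin that binds p75, had 4.42 in 2RH30 and 6.34 in 2RS30, a difference of -1.92, and its other, dim probe set differed by -0.16. The signaling adaptors Frs2 and Traf6 differed by 2.19 and 1.90 in their brightest probe sets. The other, dim probe set of Frs2 differed by -0.37, and the others of Traf6 by -0.40 to 0.49.

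Pmp22, a membrane protein of compact myelin that fibroblasts and epithelia also make, was the gene of the 8 with 2 probe sets that were not dim. Only the brighter was at high signal, at percentile 98.2 of 2RH30 and 98.1 of 2RS30, against 73.0 and 64.2 for the other. The brighter read 9.31 in 2RH30 and 8.73 in 2RS30, a difference of 0.58, and the other read 6.45 in 2RH30 and 5.94 in 2RS30, a difference of 0.51. As deposited they were 0.07 apart. The brighter probe set lies where the whole array was shifted, since its neighbours had a median difference of 0.51, and level-adjusted it was 0.07. The other was 0.32 after the same adjustment. Among neighbours, 43.2% and 50.0% differed by more than these probe sets did as deposited.

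Mbp, a protein of the cytoplasmic face of myelin, is read by 3 probe sets, and they did not share a direction. The brightest read 6.60 in 2RH30 and 5.99 in 2RS30, a difference of 0.61 (level-adjusted 0.40). The next, which was dim, read 5.29 in 2RH30 and 4.94 in 2RS30, a difference of 0.35 (level-adjusted 0.42). The dimmest read 3.67 in 2RH30 and 4.25 in 2RS30, a difference of -0.58 (level-adjusted -0.14). The span between the highest and the lowest of these differences, 1.19, was wider than any single difference among the 8 genes. Transcripts of the Mbp gene are also made outside glia from an upstream start, and which transcripts each probe set reads was not examined.

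**Figure D3:**
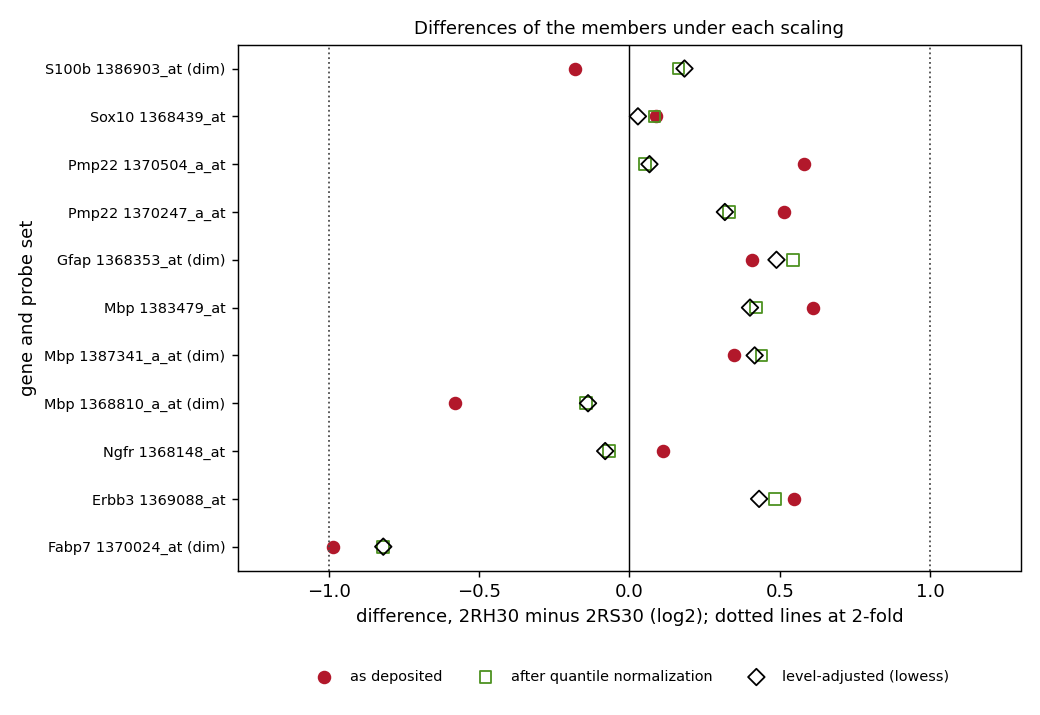
Each probe set of the 8 glial genes (vertical axis) by its difference, 2RH30 less 2RS30 (horizontal axis, log2), as deposited (filled circles), with both arrays quantile normalized (squares) and level-adjusted (diamonds). No point passes the dotted lines at 2-fold, and the points of S100b and Ngfr change side of 0.

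Among other myelin genes, 17 of 21 listed were measured, 2 of them at least 2-fold higher in 2RH30 and 5 lower, against 11.5% and 9.62% of all genes, with a median difference of 0.05 (level-adjusted -0.19). With level adjustment these counts were 2 and 4. Dhh, the hedgehog ligand that Schwann cells secrete, had 3.77 in 2RH30 and 6.21 in 2RS30 in its only probe set, a difference of -2.43. Ugt8, the enzyme that makes the myelin lipid galactocerebroside, was lower in both its probe sets, by -1.87 and -1.51, the second being dim. Egr2, a transcription factor that switches on myelin genes, differed by 1.43 in its brighter probe set and by -0.62 in the other, dim one. Drp2, a dystrophin-related protein of Schwann cells, differed by 1.45 in its brightest probe set and by -1.68 to 0.51 in 4 dim ones. The dim one at -1.68 read 3.00 in 2RH30, also under the 5th percentile of that array.

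Of 24 listed genes of neural crest cells and unmyelinated glia, 18 were measured, each read from its brightest probe set. Of these, 1 was at least 2-fold higher and 3 lower, against the same shares of all genes, with a median of -0.22 (level-adjusted -0.13). Gap43, a growth-associated protein of axons and of unmyelinated Schwann cells, had 3.86 in 2RH30 and 5.99 in 2RS30, a difference of -2.14, and its other, dim probe set differed by -2.17. Tfap2a, a transcription factor of the neural crest, had 5.40 in 2RH30 and 7.34 in 2RS30, a difference of -1.94 in its only probe set. Ncam1, an adhesion molecule that chromaffin cells carry as well, differed by 1.26 in its brightest probe set and by 0.33 and -0.77 in 2 dim ones. Sox2, a factor of glial precursors, differed by 0.79 in its brightest of 4 probe sets and by -2.39 in another.

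**Figure D4:**
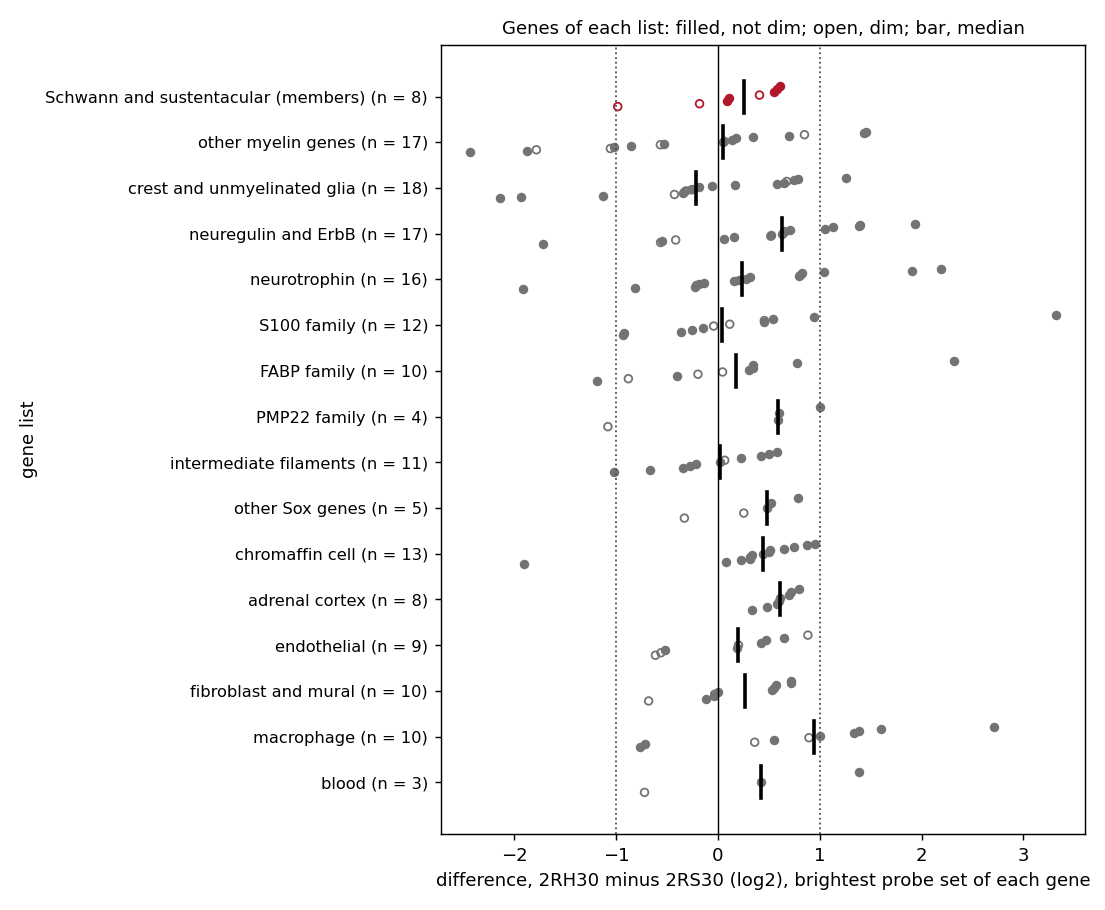
Each gene, read from its brightest probe set, by its difference, 2RH30 less 2RS30 (horizontal axis, log2), for the 8 glial genes (red, top) and for 15 other gene lists (grey), with list medians (black bars), dim genes as open circles and 2-fold differences as dotted lines. The glial genes stay inside the dotted lines, with a median of 0.26.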

How the data were processed

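RNA was measured on Affymetrix rat genome arrays, 1 per pool. The deposited values are log2 expression, 1 for each probe set of an array. Per the submitters' processing notes, Affymetrix Expression Console was used, its version unstated. The study's methods describe GCRMA run in Partek and call the deposited data quantile-normalized, and the sources used here do not give how probes were summarized for the deposit. The 2 columns of deposited values did not share a distribution, with an SD of 1.57 in 2RH30 and 1.28 in 2RS30. A log2 scale was inferred from values of 2.28 to 15.03. Of the probe sets, 57 controls were set aside. Probe sets were named from the platform annotation, with symbols updated by gene number through RefSeq (GRCr8). The annotation gave 1 gene for 20826 probe sets, several for 436 and none for 9780, and 20764 matched by gene number. Brightest means the highest mean of both arrays.

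No model was fitted, as each group has 1 array, and the number of arrays limits the precision. The lowess adjustment for level used a fraction of 0.3 and 3 iterations, and was tested on simulated data. Those data had less noise and larger differences than the glial genes and their neighbours. The test therefore does not cover differences of the size given here. The glial genes, the 15 other lists and the rule for named genes (up to 2 highest and 2 lowest genes of a list that are not dim, and partners of a member) were chosen with earlier results of these data known, and marker lists of other cells are given by counts. Alternatives are listed in the closing section. Python 3.11.15, pandas 2.3.3, numpy 2.4.6, statsmodels 0.14.6 and matplotlib 3.10.9 were used.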

Additional observations from a re-analysis of the deposited data

How the results depend on the processing

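The count of 0 probe sets of the 8 glial genes at 2-fold was also 0 after quantile normalization and after lowess adjustment. It was 0 too after centring each array on its median, which shifts all probe sets alike by a small amount. A 3-fold threshold, leaving out the 5 dim probe sets and leaving out the 4 whose suffix allows several transcripts could only give 0 again. Those settings are therefore no check of the count. At 1.5-fold the count was 2. The median over the 11 probe sets, 0.35 as deposited, was 0.34 after centring, 0.16 after quantile normalization and 0.18 after lowess. The median over the 8 genes, 0.26, was 0.25, 0.12 and 0.12 under the same scalings, 0.12 with probe sets of a gene averaged, 0.55 without the 3 dim genes and 0.11 to 0.41 when 1 gene at a time was left out. Of 33 values of single probe sets under the scalings, 33 moved by less than the SD between probe sets, 0.82, and by at most 0.53. This is a weak check, since centring shifts all probe sets alike and the other scalings follow the trend of the whole array. The widest shift took the brighter probe set of Pmp22 from 0.58 to 0.05 under quantile normalization. The sign turned for S100b and Ngfr under quantile normalization (0.16 and -0.07) and lowess (0.18 and -0.08). Lowess subtracts the level trend, and the neighbours of these 2 genes had median differences of -0.37 and 0.15. Their own differences as deposited, -0.18 and 0.11, were smaller in size. No paired analysis was possible because there is 1 array for each group. The values carry no detection call, so no limit can be stated for the dim probe sets.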

Other observations

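Some relatives of the 8 glial genes differed by more than any of those genes did. S100a11, a calcium-binding protein of the S100 family found in many tissues, had 7.41 in 2RH30 and 4.09 in 2RS30, a difference of 3.32 (level-adjusted 3.19) in its only probe set, and was the 1 of 12 measured family members 2-fold or more higher, with 0 lower, against 11.5% and 9.62% of all genes. S100a1 differed by 0.95, and S100a4 and S100g by -0.94 and -0.92, with S100g past 2-fold lower after level adjustment (-1.12). In the family of Fabp7, 1 of 10 measured genes was 2-fold or more higher and 1 lower. Fabp1, the liver form, had 5.90 in 2RH30 and 3.59 in 2RS30, a value under the 5th percentile of 2RS30 (3.67), so the size of its difference of 2.32 is uncertain. Fabp4, the adipocyte form, had 4.32 in 2RH30 and 5.51 in 2RS30, a difference of -1.19, and Fabp6 and Crabp1 differed by 0.78 and -0.41. Of the 4 relatives of Pmp22, Lim2, a lens protein that was dim here and is named after its values were seen, differed by -1.08 (level-adjusted -0.63), and 3 were higher in 2RH30 in their brightest probe sets, Emp1 by 0.59, Emp2 by 0.60 and Emp3 with 9.83 in 2RH30 and 8.82 in 2RS30 (level-adjusted 0.44, 0.48 and 0.48), but the other probe set of Emp1 differed by -0.74. Among 11 intermediate filament genes, to which Gfap belongs, Krt8 differed by -1.02, Prph by -0.66, Nefm by 0.51 and Vim by 0.58. Of the other Sox genes, Sox11 differed by 0.52 in its only probe set. Sox4 is read by 7 probe sets, of which the brightest differed by 0.48 (level-adjusted 0.01). The others of Sox4 differed by 2.07, 2.04, 1.78, 1.06 and 0.68 (level-adjusted 1.62, 1.69, 1.70, 0.64 and 0.51) and, in a dim one, by -0.29 (level-adjusted 0.07). Most of these genes are read by 1 probe set, and no cause of these values was tested.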
